A study of Rattus norvegicus with 8 samples.

Results

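The lungs of rats kept for 24 h in hypobaric hypoxia at an altitude of 30000 ft were compared with those of unexposed (0 h) rats on 2 of the 8 arrays of the series. Both arrays with a labelled exposure of 24 h were taken. On 1 array the rats had received normal saline for 7 days, and on the other cobalt at 12.5 mg per kg body weight for 7 days. Exposed and 0 h lung RNA of a pretreatment were hybridized together in different dyes, so that every value below is a log2 ratio of 24 h over 0 h. The other 6 arrays hold 6, 12 and 48 h of exposure, 1 array per pretreatment and duration. The labels give no strain, age or sex, and do not say how many animals stand behind an RNA. With 1 array per group, p-values measure only the spread between these arrays, which may be technical.

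Cells meet a lack of oxygen through hypoxia-inducible factors, whose alpha subunits are marked for destruction by oxygen-dependent hydroxylases and accumulate when oxygen falls. Cobalt blocks the same hydroxylases and is a classic way of stabilising these factors in normal air. In the lung, hypoxia also constricts the pulmonary arteries and, when prolonged, drives remodelling of their smooth muscle and matrix.

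Exposed RNA carried Cy5 in saline rats and Cy3 in cobalt rats, and each pretreatment had a slide of its own, scanned on its own day. In any difference between the saline and the cobalt array, the pretreatment cannot be told apart from dye orientation, slide or scan day. The exposed RNA was well above background at 68.2% of spots on the saline array of 24 h and at 63.4% on the cobalt array, and the 0 h RNA at 63.9% and 69.7%. Of 24141 genes tested, 19805 were well above background in both dyes of both 24 h arrays. All 14 tested genes of surfactant and type II cells and all 12 of type I cells were among these 19805. So were 82% of all genes tested, and only tested genes were examined, so that this is no test of the lung label. The number of arrays limits the precision: the median standard error of a 24 h mean was 0.12 log2 units.

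At 24 h the genes that rose included matricellular, smooth muscle and activin-binding genes, and those that fell included endothelial and cytotoxic lymphocyte genes. The mean of the 2 arrays differed from 0 in 333 of 24141 genes (1.38% of genes tested; limma with Benjamini-Hochberg adjustment, adjusted p under 0.05; 17.9% at an unadjusted p under 0.05), 185 higher (0.766%) and 148 lower (0.613%). Of the 333, 327 had the same sign in both 24 h arrays and 266 the same sign on all 8 arrays. The arrays of a pretreatment carry the same labelled 0 h RNA, so that these signs are not independent. A deviation of that 0 h RNA is not part of the spread that the p-values measure. The fit takes a constant offset between the saline and the cobalt arrays out of the spread, so that a called gene may still differ in size between the 2 arrays. Without that term 11 genes passed, and with 1 of the 24 h arrays left out 6 (without the cobalt array) or 23 (without the saline array) passed. Leaving out either 48 h array left 107.

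**Figure D1:**
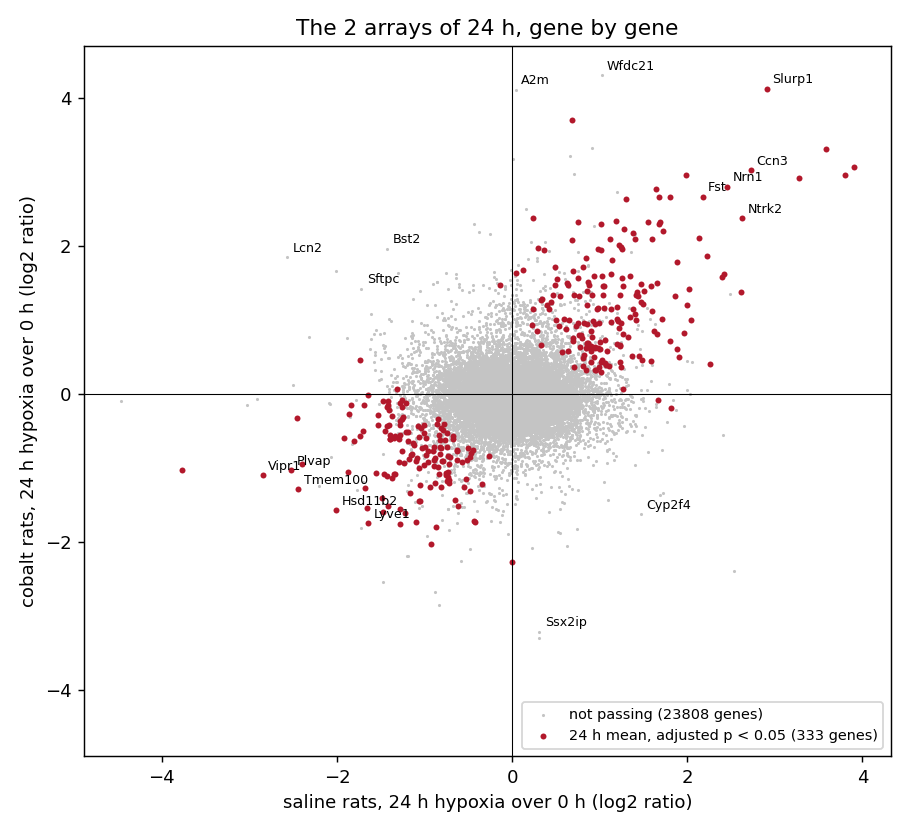
Log2 ratio of 24 h hypoxia over 0 h in the saline array (x axis) and in the cobalt array (y axis) for 24141 genes, with the 333 genes whose mean passed the test in red. The red genes lie mainly in the upper right and lower left, while Lcn2, Bst2, Sftpc and Cyp2f4 lie in the opposed corners.

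The highest mean belonged to Slurp1, a secreted epithelial peptide of the Ly6 family, at 2.91 in the saline and 4.12 in the cobalt array (mean 3.52 ± 0.33, SE, adjusted p = 0.00867 in limma). Both values were far above 0, the cobalt value the higher. Ntrk2, the receptor for brain-derived neurotrophic factor, stood at 2.63 and 2.37 (mean 2.50 ± 0.11, adjusted p = 0.000627). Its 2 values were nearly equal, and its call held in all 19 alternative settings, with an adjusted p of at most 0.0459. A second Ntrk2 probe gave a lower mean of 1.17. Nrn1, a neurite outgrowth factor, read 2.46 and 2.80. Amd1, an enzyme of polyamine synthesis, was at 2.23 and 1.86. Kng1 and Kng2, the kininogens from which kinins are cut, had means of 2.21 and 2.17. They are closely related genes, so that their probes may share signal. All of these means passed the test. Calls other than that of Ntrk2 held in fewer of the 19 settings: Amd1 in 17, Slurp1 in 16, Kng1 in 15, Nrn1 and Kng2 in 13. Of genes named below, Pfkl, Olfm1 and Gal held in 12.

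Among the genes that fell, Vipr1, a receptor for vasoactive intestinal peptide, read -2.85 in the saline and -1.10 in the cobalt array (mean -1.97 ± 0.14, adjusted p = 0.00296 in limma). It was lower in both, by more in the saline array. Hsd11b2, which inactivates glucocorticoids, was at -2.01 and -1.57. Hhip, an inhibitor of hedgehog signalling, was at -1.48 and -1.60, although a second probe averaged -0.69. Gfra2, a receptor for neurturin, was at -1.68 and -1.27, and Olfm1, a secreted olfactomedin, at -1.22 and -1.61. Cyp1a1, the enzyme most typical of aryl hydrocarbon receptor activity, was not well above background in the exposed RNA of either 24 h array and well above it in the 0 h RNA of both. It read -3.76 in the saline and -1.03 in the cobalt array. For such genes a fold was taken over the mean of both arrays. The dim level was the higher of the lowest signal well above background and the probe's own signal. In the genes named here it was the probe's own, so that the fold is that of the mean ratio and not a lower bound. Cyp1a1 was 5.27-fold lower at 24 h (adjusted p = 0.00353 in limma), although the cobalt array alone read -1.03. Slitrk6 (-0.89 and -0.72) was 1.75-fold lower (adjusted p = 0.0144 in limma). In the other direction Clec4m (0.86 and 0.62) was 1.67-fold and Celf4 (1.09 and 0.23) 1.58-fold higher, and neither passed the test.

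**Figure D2:**
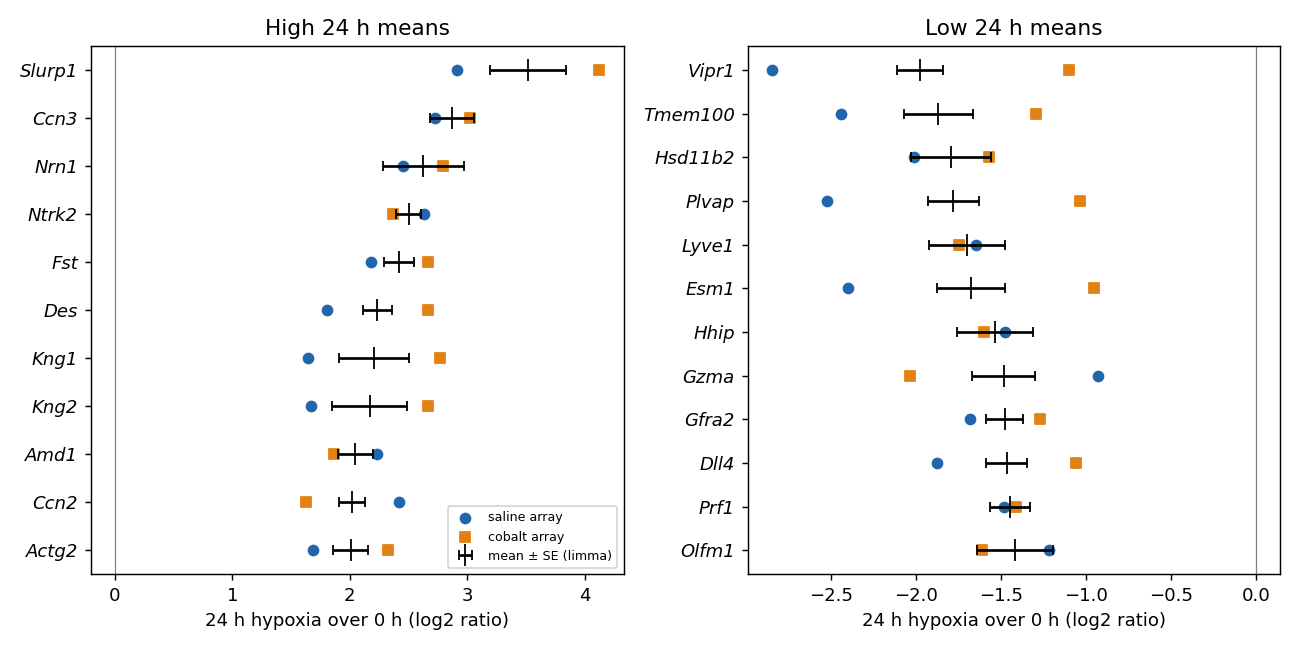
High and low 24 h means of named genes that passed the test (11 of the 12 highest and the 12 lowest), as log2 ratio over 0 h: circles are the saline array, squares the cobalt array, and bars the limma mean ± SE. Ntrk2, Ccn3 and Prf1 have nearly equal values in both arrays, whereas Vipr1, Plvap and Esm1 were lower in the saline array.

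Genes of the contractile apparatus and the matrix were among those that rose. Of 12 tested smooth muscle contractile genes, 7 rose and none fell, against 0.766% and 0.613% of genes tested. Of the 12, 9 were higher in both arrays (75.0%, against 24.0% of all genes tested). The list's median was 1.12 against -0.00 over all genes tested. Des, the intermediate filament desmin, was at 1.81 in the saline and 2.66 in the cobalt array. Actg2, the enteric smooth muscle actin, was at 1.69 and 2.32, and Tpm2, a tropomyosin, at 1.59 and 2.09. In each of these the cobalt value was the higher. The probes of Tpm2 and Myl9 were saturated on at least 1 array. Myl9, Cnn1, Tagln and Tpm1 also passed, while Myh11, smooth muscle myosin, read -0.60 and 1.44 (adjusted p = 0.244 in limma). In bulk lung a change in the number of cells of a type and a change in RNA per cell cannot be told apart.

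Of 31 tested matrix and cross-linking genes, 9 rose and none fell, against 0.766% and 0.613% of genes tested. The list's median was 0.22. The 9 included 4 members of the CCN family of matricellular signalling proteins. Ccn3 was at 2.72 and 3.02, Ccn2, the connective tissue growth factor, at 2.42 and 1.62, and Ccn1 at 0.36 and 1.95. Both arrays were above 0 for each, with Ccn1 low in the saline array. Lox, which cross-links collagen and elastin, was at 1.34 and 1.59, and Col4a1, a basement membrane collagen, at 1.13 and 1.15, although a second Col4a1 probe averaged 0.02. Fn1, fibronectin, was at 1.62 and 0.85. Probes of Col4a1, Fn1 and Col3a1 were saturated on at least 1 array. The fibrillar collagens Col1a1 and Col3a1 did not pass: Col1a1 read -0.60 and 0.42, and Col3a1 -0.76 and 0.19. The list's median was -0.09 in the saline and 0.85 in the cobalt array.

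CCN genes are known targets of YAP and TAZ acting through TEAD factors, whose binding motif is read as GGAATG on either strand. The 250 bases before the start of Ccn2 and Ccn1 are shown because both genes rose and theirs are the 2 of 4 windows searched (Ccn2, Ccn1, Tgfb3 and Amd1) that hold the motif, which is in capitals (RefSeq, GRCr8, 5′ to 3′ in the direction of the gene). Ccn2 lies on the minus strand with its window at chr1:22624615-22624864, and Ccn1 on the minus strand at chr2:237225690-237225939.
Ccn2: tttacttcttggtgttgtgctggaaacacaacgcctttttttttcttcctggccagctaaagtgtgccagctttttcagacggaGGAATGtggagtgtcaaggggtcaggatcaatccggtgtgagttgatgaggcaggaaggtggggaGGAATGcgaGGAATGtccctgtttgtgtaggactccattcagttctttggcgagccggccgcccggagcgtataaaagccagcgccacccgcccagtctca
Ccn1: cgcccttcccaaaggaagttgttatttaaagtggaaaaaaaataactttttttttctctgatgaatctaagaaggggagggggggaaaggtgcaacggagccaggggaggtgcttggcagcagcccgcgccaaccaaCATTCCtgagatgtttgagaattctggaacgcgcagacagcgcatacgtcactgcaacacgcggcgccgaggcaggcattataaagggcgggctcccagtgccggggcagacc
In Ccn2 the motif starts 166, 101 and 92 bases before the start, and in Ccn1 it starts 113 bases before it. The windows of Tgfb3 and Amd1, which also rose, hold 0 matches. Over the promoters of genes tested, 10.5% hold the motif in this window. Of the smooth muscle genes, 9 had a promoter entry, among them Acta2 and Synpo2, which were not tested on the arrays. The CArG box was searched only as the exact pattern CCWWWWWWGG, where W is A or T. It was held by 0 of the 9, against 1.17% of the promoters of genes tested. With so low a share, finding 0 in 9 windows says nothing about these genes, and near matches were not searched. A match describes the letters in this window only.

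Activin and TGF-beta genes moved in both directions. Of 26 tested, 4 rose and 2 fell, against 0.766% and 0.613% of genes tested. The list's median was 0.08, and it was 0.00 under median centring. Fst, the activin-binding follistatin, was at 2.18 in the saline and 2.66 in the cobalt array (mean 2.42 ± 0.13, adjusted p = 0.00132 in limma). Its relative Fstl3 was at 1.26 and 1.56, and the ligand Tgfb3 at 1.88 and 1.77. The 3 genes were high in both arrays. The ligand Bmp2 passed with 0.24 and 2.37, almost all of it in the cobalt array. The inhibitor Smad6 (-1.84 and -0.15) and the ligand Bmp6 (-1.40 and -0.23) fell, mainly in the saline array.

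Of 24 tested genes of classic oxygen sensing, 3 rose and 1 fell, against 0.766% and 0.613% of genes tested. The list's median was 0.23. Those that rose included Bnip3, a mitophagy receptor, at 1.49 and 1.22, and P4ha2, a collagen prolyl hydroxylase, at 1.20 and 0.98. Epas1, which encodes the HIF-2 alpha subunit, was at -1.92 and -0.60 and fell. Vegfa, the vascular growth factor, read -1.31 and -0.13 (adjusted p = 0.0734 in limma), Hif1a 0.38 and 0.85 (adjusted p = 0.140), and Hmox1, haem oxygenase, 0.07 and 1.74 (adjusted p = 0.154). None of these 3 passed.

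Of 19 tested genes of glycolysis and glucose transport, 2 rose and none fell, against 0.766% and 0.613% of genes tested. Of the 19, 14 were higher in both arrays (73.7%, against 24.0% of all genes tested), and the list's median was 0.55. By array the median was 0.18 in the saline and 0.88 in the cobalt array. Eno2, an enolase, was at 1.59 and 1.45, and Pfkl, a phosphofructokinase, at 0.86 and 1.20. Slc2a1, the glucose transporter GLUT1, read 0.66 and 1.24 and Tpi1 0.18 and 1.82, and neither passed. The promoter windows of Eno2 and Slc2a1 are shown because they hold the core of the hypoxia response element, ACGTG on either strand, in capitals (RefSeq, GRCr8). Eno2 lies on the minus strand with its window at chr4:159267221-159267470, and Slc2a1 on the plus strand at chr5:138002272-138002521.
Eno2: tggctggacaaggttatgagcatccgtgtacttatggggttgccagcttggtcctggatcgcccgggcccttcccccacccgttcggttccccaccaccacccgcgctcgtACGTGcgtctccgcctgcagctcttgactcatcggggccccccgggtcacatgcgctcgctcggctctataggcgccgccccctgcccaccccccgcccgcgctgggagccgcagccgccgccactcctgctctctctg
Slc2a1: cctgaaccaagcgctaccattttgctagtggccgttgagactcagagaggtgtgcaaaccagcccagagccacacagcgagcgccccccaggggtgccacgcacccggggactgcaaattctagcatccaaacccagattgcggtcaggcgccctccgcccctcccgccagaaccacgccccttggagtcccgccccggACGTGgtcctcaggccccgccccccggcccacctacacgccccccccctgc
The core starts 139 bases before the start in Eno2 and 51 bases before it in Slc2a1. The window of Pfkl, the other gene of the list that rose, holds 0 matches. The core was found in 6 of 18 promoters of this list (33.3%), against 21.1% of the promoters of genes tested.

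Cytotoxic lymphocyte genes were low in both arrays. Of 20 tested T and NK cell genes, 6 fell and none rose, against 0.613% and 0.766% of genes tested. All 20 were below 0 in both arrays, as were 26.2% of all genes tested, and the list's median was -0.84. Prf1, perforin, was at -1.48 in the saline and -1.41 in the cobalt array (mean -1.45 ± 0.12, adjusted p = 0.00492 in limma). Gzma, a granzyme, was at -0.93 and -2.04, and Gzmb at -0.87 and -1.80. Prf1 was about equally low in both arrays, and Gzma and Gzmb were lower in the cobalt array. A second Gzmb probe averaged -0.67. Gzmm, a granzyme with closer values of -1.16 and -1.35, Il2rb and Nkg7 also fell. The T cell receptor gene Cd3e read -0.32 and -0.42 and did not pass.

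Of 30 tested endothelial genes, 3 fell and 1 rose, against 0.613% and 0.766% of genes tested. The list's median was -0.55 in the saline and 0.04 in the cobalt array. Plvap, a component of fenestral diaphragms, was at -2.52 and -1.03, and Tmem100, a transmembrane protein of arterial endothelium, at -2.44 and -1.29. Lyve1, the hyaluronan receptor of lymphatic endothelium, was at -1.64 and -1.75. Aqp1, a water channel, rose with 0.29 and 1.97. Outside that list Esm1, endocan, was at -2.40 and -0.96, and Dll4, a Notch ligand of arterial endothelium, at -1.87 and -1.06. Apart from Lyve1, the genes that fell were lower in the saline array. Cldn5, claudin 5 of tight junctions, read -1.12 and 0.04 and did not pass.

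Other groups held few calls. Sgk1, a kinase induced by glucocorticoids that acts on sodium channels, was at 1.40 and 2.09 and rose, while Fkbp5 (0.90 and 0.44) and Tsc22d3 (-0.64 and -0.59), other glucocorticoid targets, did not pass. The chemokines Cxcl12 (1.22 and 2.00) and Ccl2 (1.96 and 0.82) rose, although a second Cxcl12 probe averaged -0.79, and the alarmin Il33 (-0.99 and -0.72) fell. Idi1, of sterol synthesis, rose with 0.49 and 1.71, and 15 of 22 tested genes of cholesterol and fatty acid synthesis were higher in both arrays (68.2%, against 24.0% of all genes tested). Of 36 cell cycle genes none passed, although 27 were lower in both arrays (75.0%, against 26.2% of all genes tested), with a median of -0.51. None of 38 ribosomal protein genes passed, and their median was 0.00.

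**Figure D3:**
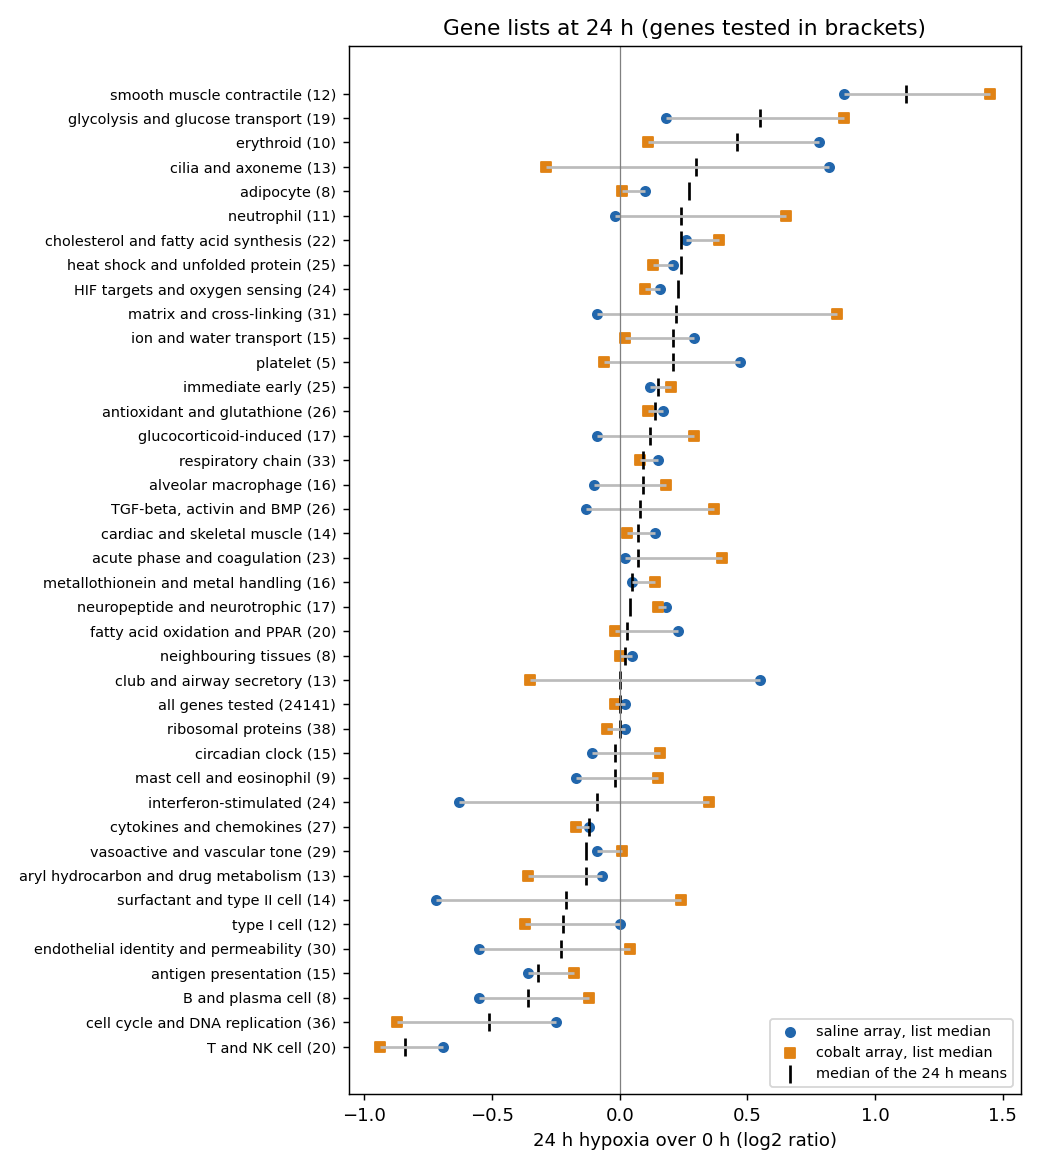
Median log2 ratio of 24 h over 0 h for each gene list in the saline array (circles), in the cobalt array (squares) and over the 24 h means (vertical marks). Smooth muscle genes (median 1.12) are at the top and T and NK cell genes (median -0.84) at the bottom, and the interferon, surfactant, cilia and club cell lists have their 2 arrays on opposite sides of 0.

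The 2 arrays of 24 h had the same sign in 12116 genes (50.2% of genes tested). Across the 24141 genes the 2 arrays of 24 h correlated at r = 0.15, whereas the saline array correlated at 0.60 to 0.70 with the other saline arrays and the cobalt array at 0.67 to 0.75 with the other cobalt arrays. These coefficients are across genes, which are not independent replicates, and arrays of 1 pretreatment have slide, dye orientation and 0 h RNA in common. At least 1 log2 unit in both arrays and in the same direction was reached by 120 genes, 79 higher (0.327% of genes tested) and 41 lower (0.17%). Together they were 0.497% of genes tested, against 229 genes (0.949%) at 6 h, 110 (0.456%) at 12 h and 93 (0.385%) at 48 h.

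Opposite directions of at least 1 log2 unit in the 2 arrays were found in 16 genes (0.0663% of genes tested), of which 12 have a gene name, against 32 (0.133%) at 6 h, 69 (0.286%) at 12 h and 33 (0.137%) at 48 h. In 8 of the 16 the 2 pretreatments had the same opposition at all 4 durations. Sftpc, surfactant protein C, was one of them: it read -1.72 in the saline array of 24 h and 1.42 in the cobalt array, and lay between -1.90 and -1.72 on all saline and between 0.96 and 1.65 on all cobalt arrays. It was the one saturated gene of the 16. Cyp2f4, a club cell cytochrome, was at 1.48 and -1.63, and Bst2, an interferon-induced membrane protein, at -1.42 and 1.96, again with the same signs at the other durations. Of 24 interferon-stimulated genes, 18 had opposite signs at 24 h (75.0%, against 49.8% of all genes tested), with medians of -0.63 and 0.35. The medians of that list were -1.01 and -0.51 at 6 h, 1.37 and -0.47 at 12 h, and -0.61 and 0.38 at 48 h. Of 13 cilia genes, 12 had opposite signs (92.3%), with medians of 0.82 and -0.29.

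In Lcn2, itself an opposed gene, and in other genes the cobalt minus saline difference at 24 h departed most from the other durations. Lcn2, the iron-binding acute phase protein lipocalin 2, was at -2.57 in the saline and 1.84 in the cobalt array of 24 h. On the saline arrays of 6, 12 and 48 h it read -1.26, 1.07 and 0.56, and on the cobalt arrays -0.01, -1.50 and -1.16. The cobalt minus saline difference at 24 h thus exceeded that at the other durations by 5.42 ± 1.23 (SE, unadjusted p = 0.0023 in limma). A2m, a protease inhibitor of the acute phase, was at 0.04 and 4.11 (4.86 ± 1.14), Wfdc21 at 1.02 and 4.30 (3.56 ± 1.22) and Slpi, a secreted protease inhibitor, at -1.14 and 0.76 (3.07 ± 0.96). In all 4 the saline array of 12 h was also high, at 1.07 to 3.40. In the other direction Apln, the ligand apelin, was at -1.19 and -2.19 (-2.44 ± 0.65) and Neto2 at 2.41 and -0.56 (-2.31 ± 0.74), while a second Neto2 probe averaged 0.17 over the 2 arrays against 0.93. Ssx2ip read 0.31 and -3.22, and its second probe averaged 0.10 over the 2 arrays, so that the probes disagree. No gene passed adjustment for this difference in limma (0 of 24141, or 0%, with 386, or 1.6%, at an unadjusted p under 0.05). In simulated data this comparison recovered 0% of genes changed by 1 log2 unit and 70.5% of those changed by 2.

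**Figure D4:**
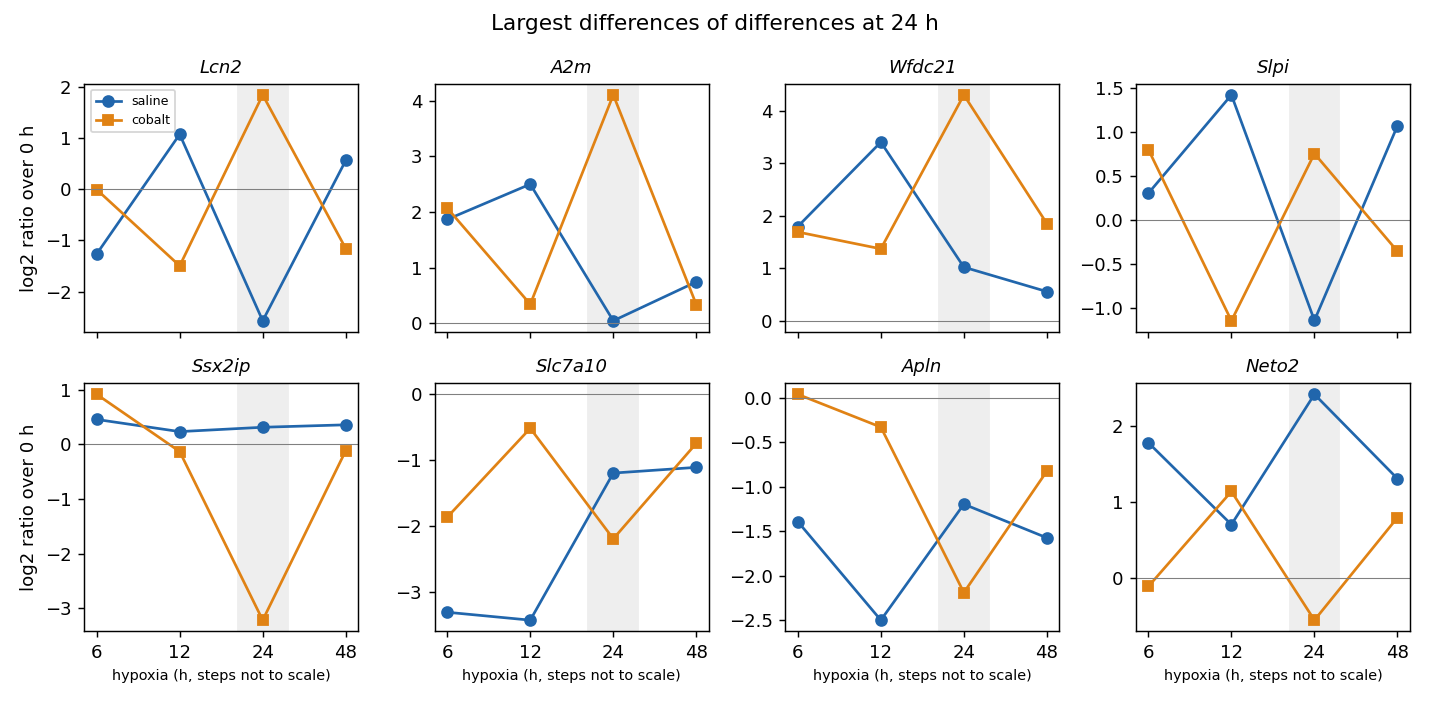
Log2 ratio over 0 h at 6, 12, 24 and 48 h in saline (circles) and cobalt (squares) rats for genes with the highest (top row) and lowest (bottom row) difference of differences at 24 h. Lcn2 was at -2.57 in saline and 1.84 in cobalt at 24 h (shaded), and none of the 8 genes passed adjustment.

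No gene passed the test of 24 h against the other durations. Against the mean of 6, 12 and 48 h, 0 of 24141 genes (0%) passed in limma, with 322 (1.33%) at an unadjusted p under 0.05. In simulated data this comparison recovered 0.5% of genes changed by 0.5 log2 units and 86% of those changed by 1. Small differences would therefore mostly be missed. Against single durations 0 (0%) passed in limma for 6 h (1709 unadjusted, 7.08%), 12 h (476, 1.97%) and 48 h (772, 3.2%). Within a pretreatment these comparisons share the 0 h RNA. In both pretreatments 24 h was the highest of the 4 durations for 504 genes (2.09%) and the lowest for 725 (3%), together 1229 (5.09%). For 6 h, 12 h and 48 h the share was 20.8%, 11.2% and 24.6%.

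The genes named next were the largest differences among genes with 24 h highest or lowest in both pretreatments. That position was therefore set by the choice, and none of them passed adjustment. Ccn5, a CCN protein of smooth muscle, was at -1.38, 0.28, 0.98 and 0.13 in saline and at 0.01, 1.58, 1.96 and 1.08 in cobalt rats at 6, 12, 24 and 48 h. The 24 h value was the highest in both series, by 1.19 ± 0.14 over the mean of the others (unadjusted p = 5.7e-05, the lowest of all genes). Col5a3, a collagen chain, exceeded the others by 0.89 ± 0.25, Tbx18, a transcription factor of mural cells, by 0.89 ± 0.19, and Krt14, a basal cell keratin, by 0.81 ± 0.18. Cyp26b1, which degrades retinoic acid, exceeded them by 0.70 ± 0.11. It read 0.55 in the saline and -1.56 in the cobalt array of 24 h, and so was below its 0 h level in cobalt rats.

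At the low end Penk, the enkephalin precursor, read 2.03, 0.87, 0.16 and 1.15 in saline and 0.85, 0.24, -0.17 and 0.28 in cobalt rats. Its 24 h value was the lowest in both, by -0.91 ± 0.17 against the mean of the others. Pimreg, a mitotic regulator, stood lower still at -0.97 ± 0.38, and Cd8b, of cytotoxic T cells, at -0.89 ± 0.45. The mitotic genes Cdkn3 (-0.86 ± 0.41), Ccna2, cyclin A2 (-0.84 ± 0.43), and Plk1 (-0.83 ± 0.50) were also among the 8 lowest. Second probes gave -0.18 for Pimreg and -0.31 for Ccna2. In saline rats Ccna2 was at -0.23, 1.09, -0.35 and 1.40, and in cobalt rats at -0.17, -1.15, -1.25 and -0.70. The cell cycle list had medians of -0.17, 0.45, -0.25 and 0.83 in saline and -0.29, -0.92, -0.87 and -0.33 in cobalt rats, and 24 h was the lowest duration in both for 6 of its 36 genes. Among T and NK cell genes 24 h was the lowest for 7 of 20, against 3% of all genes tested. That list had medians of -0.72, -0.37, -0.69 and -0.48 in saline and -0.32, -0.16, -0.94 and -0.56 in cobalt rats. Its lowest median was thus at 6 h in saline rats and at 24 h in cobalt rats. Other lists also had members lowest at 24 h in both pretreatments. They included 10 of 38 ribosomal protein genes, 3 of 15 antigen presentation genes and 2 of 8 B and plasma cell genes. In the ribosomal list the median difference from the other durations was small, at -0.09.

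**Figure D5:**
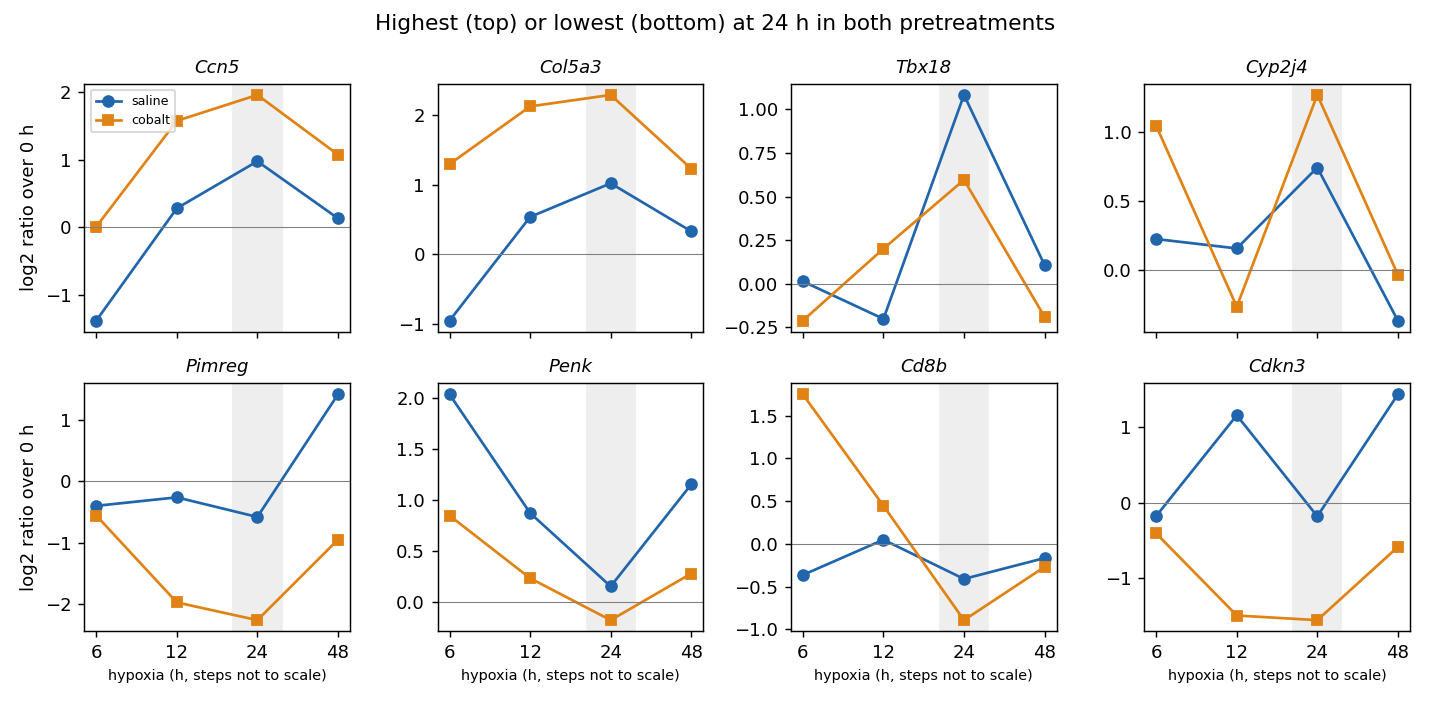
Log2 ratio over 0 h at each duration in saline (circles) and cobalt (squares) rats for the 4 genes highest (top row) and the 4 lowest (bottom row) at 24 h in both pretreatments. Ccn5 peaks at 0.98 and 1.96 and Penk has its minimum of 0.16 and -0.17 at 24 h (shaded), and none of the 8 differences from the other durations passed adjustment.

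Gal, the neuropeptide galanin, was at 3.45, 2.30, 0.80 and -0.17 in saline and at 3.05, 2.33, 0.76 and -0.40 in cobalt rats, and its 24 h mean passed (0.78 ± 0.12, adjusted p = 0.0373 in limma). The 2 series were nearly superimposed. The glucocorticoid-induced list had medians of 1.10, 0.33, -0.09 and -0.41 in saline rats and 0.77, 0.10, 0.29 and -0.07 in cobalt rats. Fkbp5 was at 3.24, 2.32, 0.90 and 0.46 in saline rats and Mt1, metallothionein 1, at 3.85, 2.25, 0.70 and 0.91. In cobalt rats Mt1 read 2.33, 0.21, 1.16 and 0.07. Of the clock genes, none of 15 passed at 24 h: Nr1d1 read -1.13 and 1.28, Dbp -0.60 and 0.18, Per1 -0.78 and 1.02, Per2 0.61 and -0.68, and Bmal1 0.17 and 0.22. Edn1, endothelin 1, read -0.13 and -0.94, Ager, of type I cells, -1.04 and -0.70, Mki67 -0.57 and -1.23, and Top2a -0.80 and -1.71, none of which passed.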

How the data were processed

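Lung RNA of 8 groups was measured on 8 Agilent arrays with 2 dyes. Per the file headers, the scanner output deposited by the authors came from Agilent Feature Extraction 9.5.1.1 and gives spot signals and backgrounds as intensity. Its log ratio, also per the file headers, is a log10 value of the red signal relative to the green one. The authors' deposited series matrix is in log2, exposed relative to 0 h as its values show, with a median of 0 in each column. How it was centred is not given in the sources used here.

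With limma 3.58.1 in R 4.3.3, background was corrected by normexp with an offset of 50 and each array was then normalized by loess, with 208 to 294 outlier spots per array dropped. Cobalt arrays were turned in sign. Probes entered the test when at least 4 arrays had them well above background in either dye, and the brightest probe stood for a gene (24141 genes). RefSeq gene names were matched to 10726 of 41012 probes through the accession, to 5586 through the symbol and to 3730 through an older symbol; 20970 kept the name in the file. The fit held duration and pretreatment (3 residual degrees of freedom). The difference of differences used pretreatment and 24 h (4 residual degrees of freedom). P-values were adjusted over all genes.

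Named genes were, per direction, the 12 most extreme means and the 8 most extreme against other durations. Per direction, the 6 most extreme differences of differences and opposed genes were added. Further named were up to 4 genes per list, genes well above background in only exposed or only 0 h RNA, and 23 genes always named. Not every gene that the rule selects is described, and 1 of them is not reported here. The members and lists were chosen with earlier results of these data known. The fits were tested on simulated data. Alternatives were the software's log ratios, the series matrix, no background subtraction, median centring, scaling, other filters and models, and leaving out each array.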

Additional observations from a re-analysis of the deposited data

Results flagged for a closer look

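At 24 h, 12 named genes had opposite signs of at least 1 log2 unit in the saline and the cobalt array, and the difference was not tested, since each group has 1 array. The values of 10 of them are given, with at most 6 per direction. The cobalt minus saline log2 difference was 4.41 for Lcn2, 3.38 for Bst2, 3.14 for Sftpc, 2.96 for Hcls1, 2.69 for Itgam and 2.41 for Nr1d1. It was -3.11 for Cyp2f4, -3.05 for Crym, -2.54 for Mlc1 and -2.25 for Rab6b. Dye orientation and slide cannot be told apart from pretreatment in these values.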

How the results depend on the processing

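No named gene's value that passed the test, as reported or under an alternative run, had the opposite sign in the other, but means that did not pass, such as those of Lcn2 and Per2, changed sign in some settings. The count of genes whose 24 h mean passed (333) became 526 with the software's log ratios and 526 with the series matrix, 905 with median centring, 1148 with scaling between arrays, 11 without the pretreatment term and 129 with the spread taken from 6, 12 and 48 h. Leaving out 1 array gave 6 to 494. The 120 genes that agreed became 441 (software), 447 (series matrix) and 72 (median centring). The 16 opposed genes became 276, 278 and 1393 in the same order, 25 without background subtraction and 44 with scaling, and the 1229 genes highest or lowest at 24 h became 2036 with scaling and 2150 without the filter. Under median centring the 2 arrays of 24 h correlated at r = -0.35. Comparisons of 24 h with other durations, at 0 genes, gave 1 against the mean of the others and 1 against 48 h with both the software's ratios and the series matrix. Against 6 h they gave 2 without background subtraction, 2 without the filter, 2 with the strict filter, 1 with the mean over probes and 1 without the variance trend. Leaving out 1 array gave 0 to 1 against the mean of the others, 6 h and 12 h. The cause was not tested. Of 39 lists, 27 kept the sign of their median in all settings run. No paired analysis was possible because each group has 1 array and the labels give no replicate numbers.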

Other observations

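Red cell genes were measured in 10 tested members, none of which passed at 24 h in limma. Their median was 0.78 in the saline and 0.11 in the cobalt array of 24 h, and 2.20 in the cobalt array of 48 h. Of the 10, 7 were higher in both arrays of 24 h, 1 was lower in both and 2 had opposite signs. Ahsp, a chaperone of alpha globin, read 1.06 and 1.13 at 24 h, and Slc4a1, the red cell anion exchanger, 1.20 and 1.09. Other members were lower in the cobalt array, with Epb42 at 0.93 in the saline and 0.04 in the cobalt array and Rhag at 0.63 and 0.26. Blood content of the lung was not measured. Among drug-metabolizing enzymes Cyp2e1 was at 2.06, -0.67, -0.88 and -1.77 in saline rats and at -0.97, -1.34, -2.68 and -2.73 in cobalt rats at 6, 12, 24 and 48 h, and its 24 h mean did not pass (adjusted p = 0.0732 in limma).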
